A study of Mus musculus with 4 samples.

Results

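The Hox genes are transcription factors with a homeodomain, carried in mouse in 4 chromosomal clusters (Hoxa, Hoxb, Hoxc and Hoxd). They were taken as every probe set of the array that names 1 gene whose symbol is a Hoxa, Hoxb, Hoxc or Hoxd gene of paralogue number 1 to 13. Of the 38 genes taken in, 33 had a probe set of their own, with 48 probe sets in all, out of 18193 genes measured. Hoxa6, Hoxb8, Hoxc11, Hoxc12 and Hoxd4 had none by this rule and are not analysed here. The 33 genes comprised 9 of Hoxa, 9 of Hoxb, 7 of Hoxc and 8 of Hoxd.

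Within a cluster, the gene order on the chromosome follows the order of expression along the body axis: low paralogue numbers act towards the head, high ones towards the tail. Genes of the same number in different clusters are paralogues. The high-numbered Hoxa and Hoxd genes are used a second time in the limb, from upper segment to digits, and cultured fibroblasts are known to keep Hox expression that reflects the site they came from.

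Total RNA came from mouse embryonic fibroblasts (MEFs), cells grown out of C57BL/6 embryos, which lacked FAN (FAN -/-) or were wild type (FAN +/+). FAN is an adaptor of the TNF receptor encoded by Nsmaf. Cells of each genotype either had no serum for 8 h and then tumour necrosis factor (TNF, 50 ng/ml, still without serum) for 16 h, or had no serum for 24 h (untreated). This gave FAN -/- with TNF, FAN -/- untreated, FAN +/+ with TNF and FAN +/+ untreated, with 1 array each. Which part of the embryo was used, how many embryos were pooled, their age and which part of Nsmaf was deleted are not given in the sources used here. Arrays were grouped by title. The genotype entry of 2 samples (FAN +/+ with TNF and FAN -/- untreated) disagrees with the title, and free-text descriptions that speak of whole embryos were not used. Nsmaf checks the titles: its log2 values were 7.48 with TNF and 7.91 untreated in FAN -/- cells, against 8.55 and 8.95 in FAN +/+ cells (limma, -1.06 ± 0.11 log2, SE, adjusted p = 0.019). Whether its probes lie in the deleted part is not given.

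Levels are given on the log2 scale as deposited. A value above 6.27, the 50th percentile of all deposited values, is called above the floor here, and lower values were raised to that floor before differences were taken. Between 49.2% and 50.5% of probe sets were above it on each array. All 10 fibroblast markers lay above the floor on all 4 arrays, while the leukocyte markers Ptprc, Cd68, Adgre1, Itgam and Tyrobp and the endothelial markers Pecam1, Cdh5, Tie1 and Emcn did not on any. Csf1r, Lyz2 and Fcer1g of the leukocyte list and Kdr and Tek of the endothelial list were above it on all 4. Each condition has 1 array, so a pair of arrays gives a fold without any test. Tests come from limma with genotype and TNF as additive terms, where each level of either term has 2 arrays. It took the 11817 genes for which 2 or more arrays exceeded the floor, and its p-values measure the spread between these arrays only. It has 1 residual degree of freedom. Its error joins how far a gene's genotype difference varies with treatment to a variance estimated over all fitted genes. That shared variance counts for more, with 3.52 prior degrees of freedom.

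Promoters are shown for 3 genes that the results turn on: Hoxd13, the gene with the largest genotype difference of the family, Hoxa11, which was also lower in FAN -/- cells, and Hoxc4, the one Hoxc gene in the promoter table used. They run from 250 bases before to 50 after the RefSeq gene start (GRCm38.p6), 5′ to 3′ on the gene's strand. Capitals mark matches on either strand to 3 short motifs. The letters searched were TATAAA for the TATA box, while the GC box was searched as GGGCGG and the CAAT box as CCAAT. The Hoxd13 promoter lies at chr2:74667975-74668274 (+ strand), that of Hoxa11 at chr6:52245761-52246060 (- strand) and that of Hoxc4 at chr15:103034145-103034444 (+ strand).
Hoxd13: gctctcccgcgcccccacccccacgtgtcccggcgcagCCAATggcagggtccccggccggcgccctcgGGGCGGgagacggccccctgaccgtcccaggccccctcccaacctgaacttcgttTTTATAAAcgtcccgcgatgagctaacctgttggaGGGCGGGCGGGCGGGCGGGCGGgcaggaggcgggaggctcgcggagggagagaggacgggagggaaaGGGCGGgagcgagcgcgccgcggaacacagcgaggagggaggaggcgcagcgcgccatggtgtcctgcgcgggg
Hoxa11: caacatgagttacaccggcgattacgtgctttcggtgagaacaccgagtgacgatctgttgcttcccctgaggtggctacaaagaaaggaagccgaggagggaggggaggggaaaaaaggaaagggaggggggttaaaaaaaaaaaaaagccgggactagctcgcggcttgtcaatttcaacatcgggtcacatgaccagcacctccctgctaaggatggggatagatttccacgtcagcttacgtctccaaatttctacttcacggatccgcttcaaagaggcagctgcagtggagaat
Hoxc4: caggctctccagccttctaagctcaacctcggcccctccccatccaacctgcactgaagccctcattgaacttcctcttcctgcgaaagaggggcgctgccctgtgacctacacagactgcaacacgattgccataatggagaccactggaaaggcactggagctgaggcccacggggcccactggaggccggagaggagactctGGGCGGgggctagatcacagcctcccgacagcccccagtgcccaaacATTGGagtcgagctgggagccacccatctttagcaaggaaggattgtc
The Hoxd13 promoter holds 37 CpG dinucleotides and 7 GC boxes, some of them overlapping, against 15 CpG and 0 GC boxes for Hoxa11 and 9 CpG and 1 GC box for Hoxc4. The median over all 32851 promoters of this length is 7 CpG, and 35.7% of them hold a GC box, 13.6% a TATA box and 37.4% a CAAT box. A promoter was matched for 22 of the 38 genes, 24 promoters in all, with a median of 14.5 CpG, a GC box in 10, a TATA box in 4 and a CAAT box in 15. The NF-kB site, searched because TNF acts through that factor, was found in 1 of the 24 promoters, that of Hoxa13, against 8.46% of all promoters. The site bound by Hox proteins with their Pbx partners (TGATNNAT, on both strands) was found in 4, against 8.85% of all. These matches describe letters in a window and say nothing of binding.

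Which Hox genes these cells express was asked first. On the FAN -/- arrays 21 of the 33 genes lay above the floor with TNF and 22 untreated, against 20 and 20 on the FAN +/+ arrays. Every one of the 7 measured Hoxc genes was above the floor in FAN -/- cells, and 5 of 7 in FAN +/+ cells. Of the 5 Hoxd genes numbered 9 to 13, 2 were above it with TNF and 3 untreated in FAN -/- cells, against 4 in either treatment of FAN +/+ cells. Of the 9 Hoxb genes, 5 were above it in FAN -/- and 3 in FAN +/+ cells. Hoxa differed by 1 gene, with 6 of 9 in FAN -/- and 7 in FAN +/+ cells. No array had a value above the floor for Hoxa2, Hoxa4, Hoxb1, Hoxb5, Hoxb7, Hoxb13, Hoxd1, Hoxd3 and Hoxd12. Those 9 take in the genes numbered 1 that were measured, Hoxb1 and Hoxd1, which act in the hindbrain among other places.

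**Figure D1:**
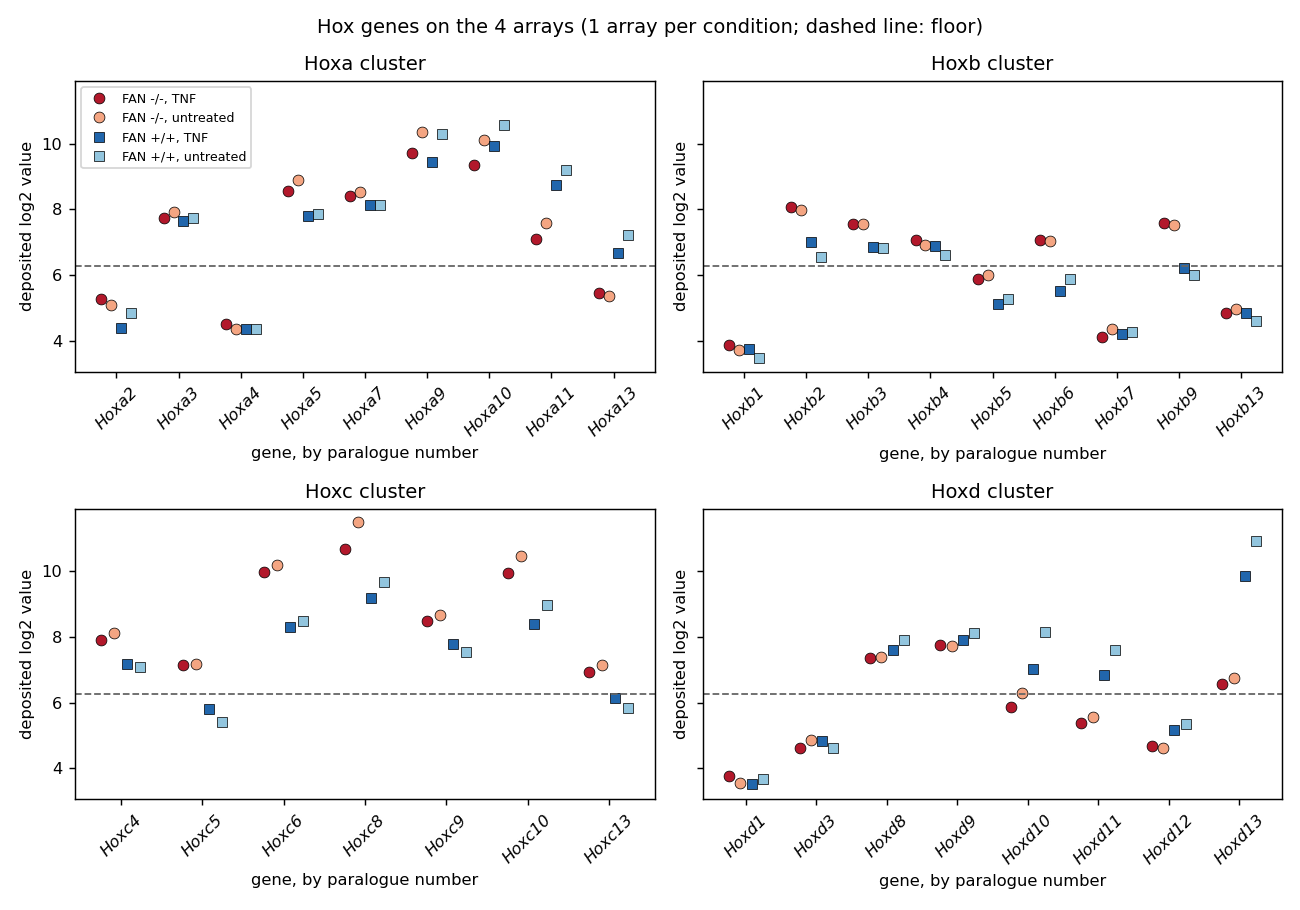
Deposited log2 values (vertical axis) of 33 Hox genes in 4 panels, 1 per cluster, with genes in paralogue order along the horizontal axis. Each gene has 4 points, for FAN -/- with TNF, FAN -/- untreated, FAN +/+ with TNF and FAN +/+ untreated, each 1 array; the dashed line is the floor of 6.27. Hoxc genes sit higher on the FAN -/- arrays and Hoxd10, Hoxd11 and Hoxd13 higher on the FAN +/+ arrays.

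Hox genes differed between the genotypes, in both directions. All 7 Hoxc genes and 4 of the 5 fitted Hoxb genes were higher in FAN -/- cells, along with Hoxa5, while Hoxd13 and Hoxa11 were lower (limma, adjusted p under 0.05 over all genes). Together these were 12 genes higher and 2 lower out of 33 measured, 24 of which could be fitted. Over all genes fitted, the background was 2.94% higher and 3.67% lower. Of the fitted genes, 6 were above the floor in 1 genotype only: Hoxb6, Hoxb9, Hoxc5 and Hoxc13 in FAN -/- and Hoxa13 and Hoxd11 in FAN +/+ cells, so passing that filter already required a difference from them. When genes were chosen by their mean over all 4 arrays instead, 12 of 23 Hox genes were higher and 2 lower, against 2.98% and 3.71% of 11625 genes. Of those 6, this choice dropped Hoxa13 alone. The others still entered through the genotype in which they were high, and Hoxb6, Hoxb9, Hoxc5 and Hoxc13 were among the 12 higher. The median genotype effect of these 23 was 0.72 log2, against -0.01 for all 11625. The 2 array pairs, FAN -/- against FAN +/+ with TNF and the same untreated, share no array, and all 23 had the same sign in both, 16 positive and 7 negative. Among all genes chosen in this way 70.4% had the same sign. These signs were taken after low values were raised to the floor. For Hoxb6, Hoxb9, Hoxc5, Hoxc13 and Hoxd11 this held 1 genotype at the floor in both pairs, so the same sign was fixed in advance. The values of these genes as deposited also had the same sign in both pairs. With each array centred on its median the counts were 12 higher and 6 lower, and without a floor 12 and 5. No Hox gene passed when TNF was left out of the model or when genes never above the floor were fitted too. Whether all arrays of a genotype came from 1 cell preparation is not given, so the cause of a genotype difference, the missing FAN or the particular embryos and cells, cannot be told apart. In bulk RNA, fewer cells of a kind and less RNA per cell cannot be told apart either.

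**Figure D2:**
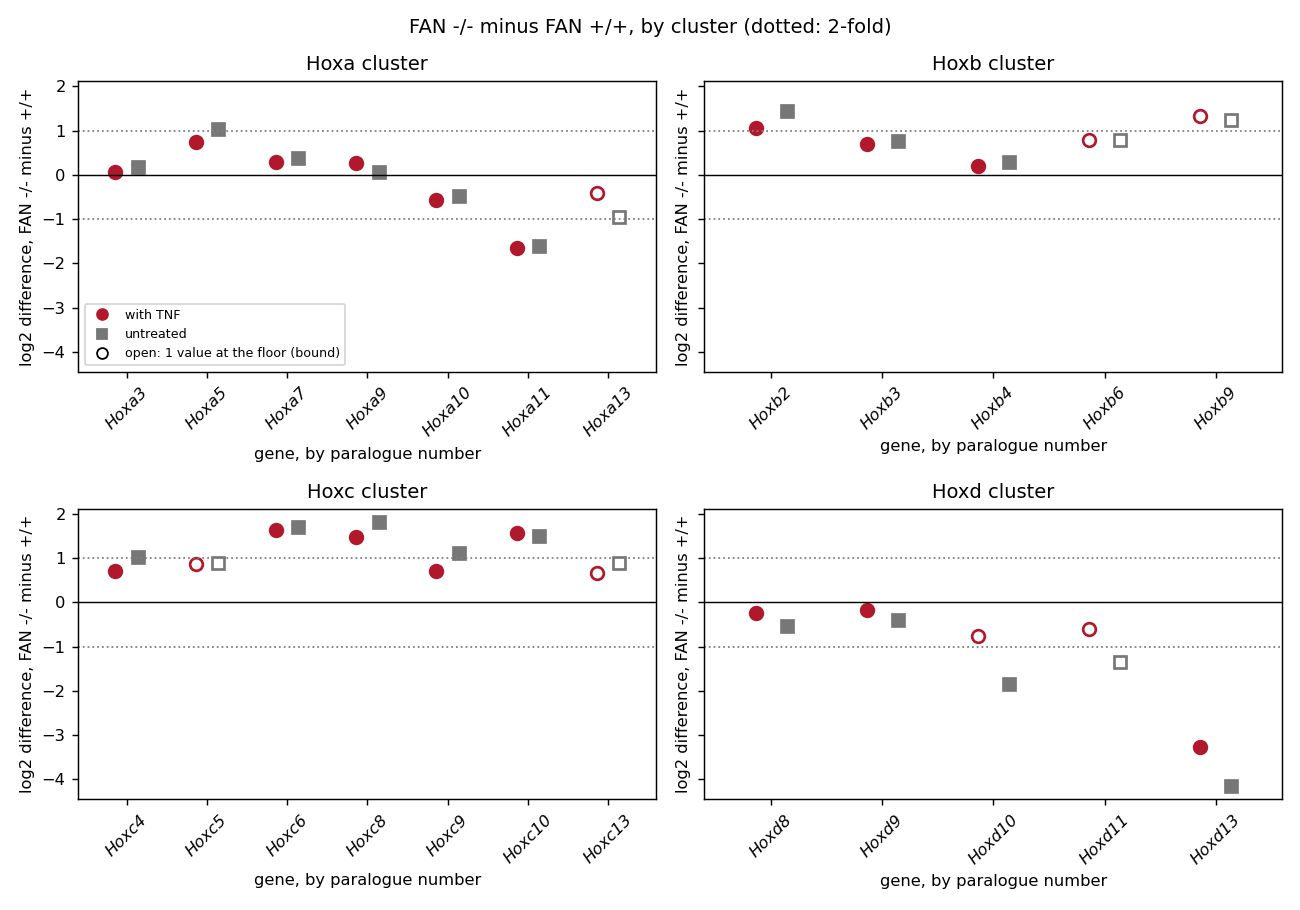
Log2 difference of FAN -/- minus FAN +/+ cells (vertical axis) for the 24 Hox genes above the floor on at least 1 array, by cluster and paralogue number; circles are the pair of arrays with TNF and squares the untreated pair. Open symbols are bounds with 1 value at the floor, and dotted lines mark 2-fold. Every Hoxb and Hoxc point lies above 0 and every Hoxd point below 0. By the probe sets plotted, Hoxa turns from positive to negative between Hoxa9 and Hoxa10.

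Hoxc genes pattern the trunk, with Hoxc8 and Hoxc9 acting at thoracic levels and Hoxc10 at lumbar levels and in the hindlimb. Hoxc8 had log2 values of 10.68 with TNF and 11.51 untreated in FAN -/- cells, against 9.19 and 9.68 in FAN +/+ cells. It was 2.81-fold higher with TNF and 3.54-fold higher untreated, with a limma effect of 1.66 ± 0.12 log2 (SE, adjusted p = 0.010). Hoxc6, a gene of thoracic levels, had 9.97 and 10.20 in FAN -/- cells, against 8.32 and 8.49 in FAN +/+ cells. For both genes the lowest FAN -/- value lay about a log2 unit or more above the highest FAN +/+ value. The Hoxc6 effect was 1.68 ± 0.11 log2 (adjusted p = 0.0085). Its probe set is of a kind that can also bind related transcripts; a second Hoxc6 probe set without that mark gave 9.87 and 10.15 in FAN -/- cells, against 8.34 and 8.52 in FAN +/+ cells. Another Hoxc6 probe set, near the floor, differed by 0.12 log2 with TNF and 0.04 untreated, and with all 3 averaged the effect was 1.23 log2 and passed. Hoxc10 had 9.95 with TNF and 10.47 untreated in FAN -/- cells, against 8.39 and 8.97 in FAN +/+ cells (1.53 ± 0.10 log2, adjusted p = 0.0096). The genotypes did not overlap in any of the 3 genes, nor in 48% of all fitted genes.

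The remaining Hoxc genes were higher by smaller amounts. Hoxc9 had 8.49 with TNF and 8.66 untreated in FAN -/- cells, against 7.78 and 7.53 in FAN +/+ cells (0.92 ± 0.15 log2, adjusted p = 0.042). Hoxc4, whose promoter is printed above and which acts at neck levels, had 7.90 and 8.13 in FAN -/- cells, against 7.18 and 7.09 in FAN +/+ cells (0.88 ± 0.13 log2, adjusted p = 0.035). Hoxc5 had 7.14 and 7.17 in FAN -/- cells, against 5.82 and 5.40 in FAN +/+ cells. The FAN +/+ values of Hoxc5 were below the floor, so its difference is a bound of at least 1.83-fold with TNF and at least 1.87-fold untreated. Hoxc13, a gene of the tail end and of hair and nail, had 6.93 and 7.15 in FAN -/- cells, against 6.15 and 5.85 in FAN +/+ cells, at least 1.58-fold and 1.85-fold higher. The limma effects of Hoxc5 (0.89 log2) and Hoxc13 (0.77 log2) passed, with the FAN +/+ side held constant at the floor; so did those of Hoxb6 and Hoxb9 below. Hoxc5 no longer passed with its probe sets averaged (0.04 log2), nor Hoxc9 and Hoxc13 with the floor at the 30th percentile. The other Hoxc5 probe sets lay below the floor on every array, so averaging lowered its values towards the floor. As deposited, one had 6.03 with TNF and 6.01 untreated in FAN -/- cells, against 5.29 and 5.31 in FAN +/+ cells. The other had 5.68 and 5.82, against 5.46 and 5.22.

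Of the 5 fitted Hoxb genes, 4 were higher in FAN -/- cells. Hoxb2, which acts in the hindbrain, had 8.07 with TNF and 7.99 untreated in FAN -/- cells, against 7.02 and 6.56 in FAN +/+ cells (1.24 ± 0.14 log2, adjusted p = 0.021). With the floor at the 70th percentile it had 0.19 log2 and Hoxc4 0.17 log2, and neither passed. That floor raised the FAN +/+ values of both genes, which shrinks the difference. Hoxb9, a thoracic gene, had 7.59 and 7.52 in FAN -/- cells, against 6.22 and 6.01 in FAN +/+ cells. It was at least 2.50-fold higher with TNF and at least 2.38-fold higher untreated. Hoxb6 had 7.06 and 7.05 in FAN -/- cells, against 5.50 and 5.87 below the floor in FAN +/+ cells. Hoxb6 and Hoxb9 entered the fit through the FAN -/- arrays alone, so that the genotypes could not overlap in them. Hoxb3 had an effect of 0.72 ± 0.10 log2 (adjusted p = 0.033). Hoxb4 did not pass, at 0.24 ± 0.10 log2 (adjusted p = 0.23), and its 2 groups came close, with 7.07 and 6.91 in FAN -/- and 6.88 and 6.62 in FAN +/+ cells.

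Of the 5 fitted Hoxd genes, Hoxd13 was lower in FAN -/- cells and the other 4 had negative values that did not pass. Hoxd13, which patterns digits and the genital region, had 6.59 with TNF and 6.77 untreated in FAN -/- cells, against 9.85 and 10.92 in FAN +/+ cells. It was 9.62-fold lower with TNF and 17.8-fold lower untreated, and limma gave -3.71 ± 0.24 log2 (SE, adjusted p = 0.0085). A second Hoxd13 probe set had 5.22 and 5.46 in FAN -/- cells, against 7.50 and 8.57 in FAN +/+ cells. Both probe sets thus separated the genotypes by more than the treatments did within either.

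Hoxd10 and Hoxd11, which act in the middle and lower limb segments, had negative values without passing the test. Hoxd10 had 5.89 with TNF and 6.31 untreated in FAN -/- cells, against 7.03 and 8.15 in FAN +/+ cells. That was at least 1.70-fold lower with TNF and 3.56-fold lower untreated, at an adjusted p of 0.069. Hoxd11 had 5.40 and 5.56 in FAN -/- cells, against 6.86 and 7.62 in FAN +/+ cells (adjusted p = 0.069). All FAN -/- values of these 2 genes were under the FAN +/+ ones, and all but 1 lay below the floor. Without the floor both passed (Hoxd10 at -1.49 log2 and Hoxd11 at -1.76 log2). Hoxd9 (-0.29 ± 0.12 log2) and Hoxd8 (-0.39 ± 0.13 log2) did not pass.

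Of the 7 fitted Hoxa genes, 1 was higher and 1 lower. Hoxa5, which acts at neck and upper thoracic levels and in the lung, had 8.56 with TNF and 8.89 untreated in FAN -/- cells, against 7.81 and 7.85 in FAN +/+ cells (0.89 ± 0.13 log2, adjusted p = 0.035). Its second probe set had a difference of 0.34 log2 with TNF and 0.86 untreated. Hoxa3, Hoxa7 and Hoxa9 had small effects of 0.12 to 0.34 log2 that did not pass. A second Hoxa9 probe set, above the floor on all 4 arrays, differed by -0.04 log2 with TNF and -0.005 untreated. Values were negative from Hoxa10 on. Hoxa10 had an effect of -0.52 ± 0.10 log2 (adjusted p = 0.059). Hoxa11, which patterns forearm and lower leg and the uterus, had 7.10 with TNF and 7.59 untreated in FAN -/- cells, against 8.75 and 9.21 in FAN +/+ cells. It was 3.14-fold lower with TNF and 3.07-fold lower untreated (-1.64 ± 0.11 log2, adjusted p = 0.0097). Hoxa13, the digit gene of this cluster, had 5.44 and 5.35 in FAN -/- cells, against 6.68 and 7.21 in FAN +/+ cells. Its difference, a bound of at least 1.33-fold with TNF and at least 1.93-fold untreated, did not pass (adjusted p = 0.084).

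**Figure D3:**
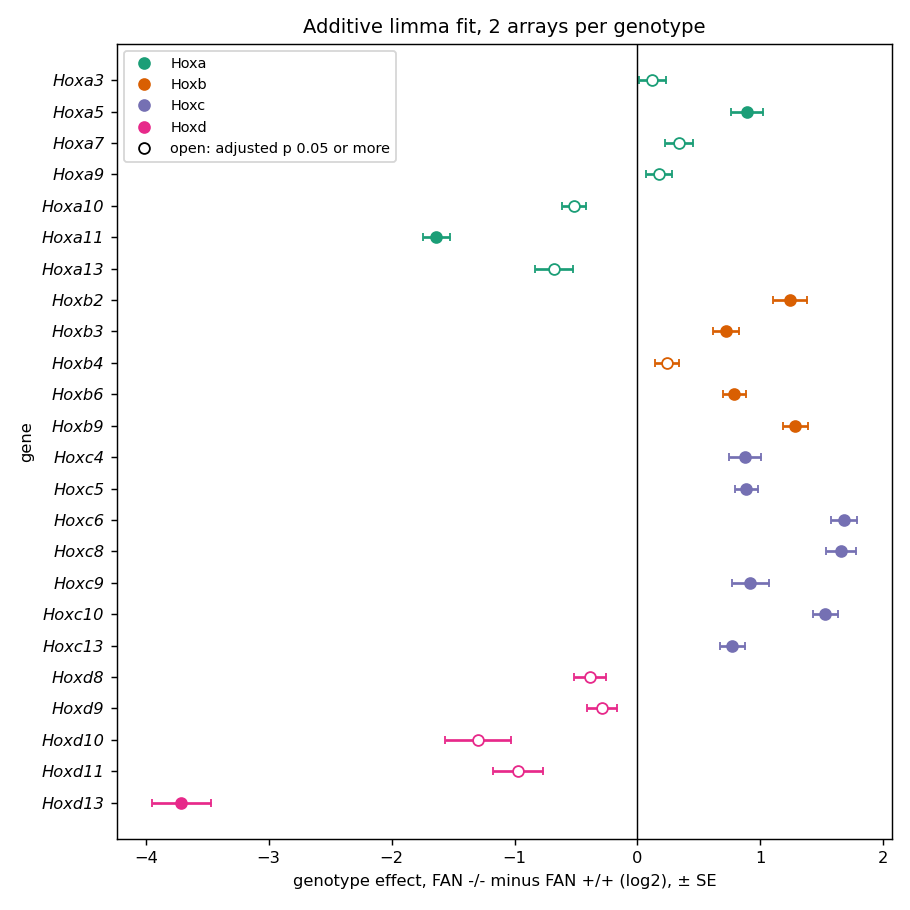
Genotype effect of the additive limma fit, FAN -/- minus FAN +/+ (horizontal axis, log2, bars are the SE), for the 24 fitted Hox genes on the vertical axis, coloured by cluster. Filled points had an adjusted p under 0.05 over all genes; the 12 filled points right of 0 are Hoxa5, 4 Hoxb genes and 7 Hoxc genes, and the 2 left of 0 are Hoxa11 and Hoxd13.

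Of 9 paralogue groups with 2 or more fitted genes, 5 had genotype effects of one sign (groups 3, 4, 5, 6 and 11) and 4 of both signs (groups 8, 9, 10 and 13). In group 13, Hoxd13 was lower in FAN -/- cells (-3.71 log2) and Hoxc13 higher, by 0.77 log2 with its FAN +/+ values at the floor and 1.04 without a floor. In group 10, Hoxc10 was higher at 1.53 log2, beside -0.52 for Hoxa10 and -1.30 for Hoxd10 (-1.49 without a floor), which did not pass. Group 9 had Hoxc9 higher at 0.92 log2 and Hoxb9 higher at 1.29 log2 (1.44 without a floor), with 0.18 for Hoxa9 and -0.29 for Hoxd9. Of the 3 tested genes numbered 1 to 3, 2 were higher. Of the 9 numbered 4 to 8, 6 were higher and none was lower (limma, 1 lower before adjustment). Of the 12 numbered 9 to 13, 4 were higher and 2 lower. Before adjustment (p under 0.05) these 12 had 4 higher and 6 lower, where 1325 and 1574 of all 11817 genes were. These are counts of single genes, and no test was made between clusters. Over all genes fitted, 2.94% were higher and 3.67% lower.

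Counted by single pairs at a 2-fold difference, 5 Hox genes were higher in FAN -/- cells with TNF and 2 lower, where 1.58% and 2.7% of all 11971 genes tested were. Untreated, 8 were higher and 4 lower, where 1.48% and 2.96% of 11924 genes were. Hoxb2, Hoxb9, Hoxc6, Hoxc8 and Hoxc10 were at least 2-fold higher in both pairs, and Hoxa11 and Hoxd13 at least 2-fold lower in both. Over all 12224 genes with a value above the floor, 0.859% were 2-fold higher and 1.46% 2-fold lower in both pairs.

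With TNF, 1 Hox gene passed the test. Hoxa10 fell with TNF, and no other Hox gene passed in either direction (limma, background 1.57% higher and 1.14% lower). Unadjusted, with p under 0.05, 0 Hox genes were higher and 5 lower of 24, where 969 genes were higher and 1250 lower of 11817. Hoxa10 had 9.36 with TNF against 10.11 untreated in FAN -/- cells, and 9.92 with TNF against 10.58 untreated in FAN +/+ cells. Its effect was -0.70 ± 0.10 log2 (SE, adjusted p = 0.0498), so the call sat at the threshold, and it passed under 4 of 9 alternative settings, with adjusted p from 0.0082 to 0.70. With its probe sets averaged the effect was -0.31 log2. The other Hoxa10 probe set lay below the floor on every array (log2 4.43 to 4.55), so averaging shrinks the effect. Hoxa9, its neighbour and a gene also used in blood cell precursors, had 9.72 against 10.36 in FAN -/- cells, and 9.44 against 10.28 in FAN +/+ cells (-0.74 ± 0.11 log2, adjusted p = 0.051). Both TNF values of Hoxa9 lay under both untreated values; TNF and untreated arrays did not overlap in 3 of 24 Hox genes (12.5%), against 37.8% of all fitted genes. Hoxc8 (-0.66 log2, adjusted p = 0.080) and Hoxc10 (-0.55 log2, adjusted p = 0.082) also had negative values in both genotypes. The median TNF effect was -0.15 log2 over the 23 genes chosen by their mean, against -0.02 over all 11625.

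By single pairs, no Hox gene was 2-fold apart with TNF in FAN -/- cells, where 1.38% of 11927 genes were higher and 1.1% lower. In FAN +/+ cells none was 2-fold higher and 2 were 2-fold lower, Hoxd10 (2.17-fold) and Hoxd13 (2.10-fold), where 2.26% of 11885 genes were higher and 1.98% lower. Hoxd13 had 6.59 with TNF against 6.77 untreated in FAN -/- cells, and 9.85 against 10.92 in FAN +/+ cells. The FAN -/- values of both genes lay close to or under the floor, which bounds any lower value there. The difference of the 2 responses, FAN -/- minus FAN +/+, was 1.07 log2 for Hoxd10 and 0.89 log2 for Hoxd13. It was positive for all 5 Hoxd genes, and for 7327 of all 12224 genes tested. It reached 2-fold for Hoxd10 alone, where 0.794% of the 12224 genes did upward and 0.818% downward. Without a floor no Hox gene reached 2-fold. Hoxd11 was below the floor on both FAN -/- arrays, so its difference came from the FAN +/+ response alone. No degree of freedom is left to test the difference of responses. Hoxb genes ranged from -0.01 to 0.16 log2 with TNF in FAN -/- cells. The 3 above the floor in FAN +/+ cells ranged from 0.06 to 0.46 log2 there, with Hoxb2 highest. Hoxb6 and Hoxb9 were below the floor on both FAN +/+ arrays.

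**Figure D4:**
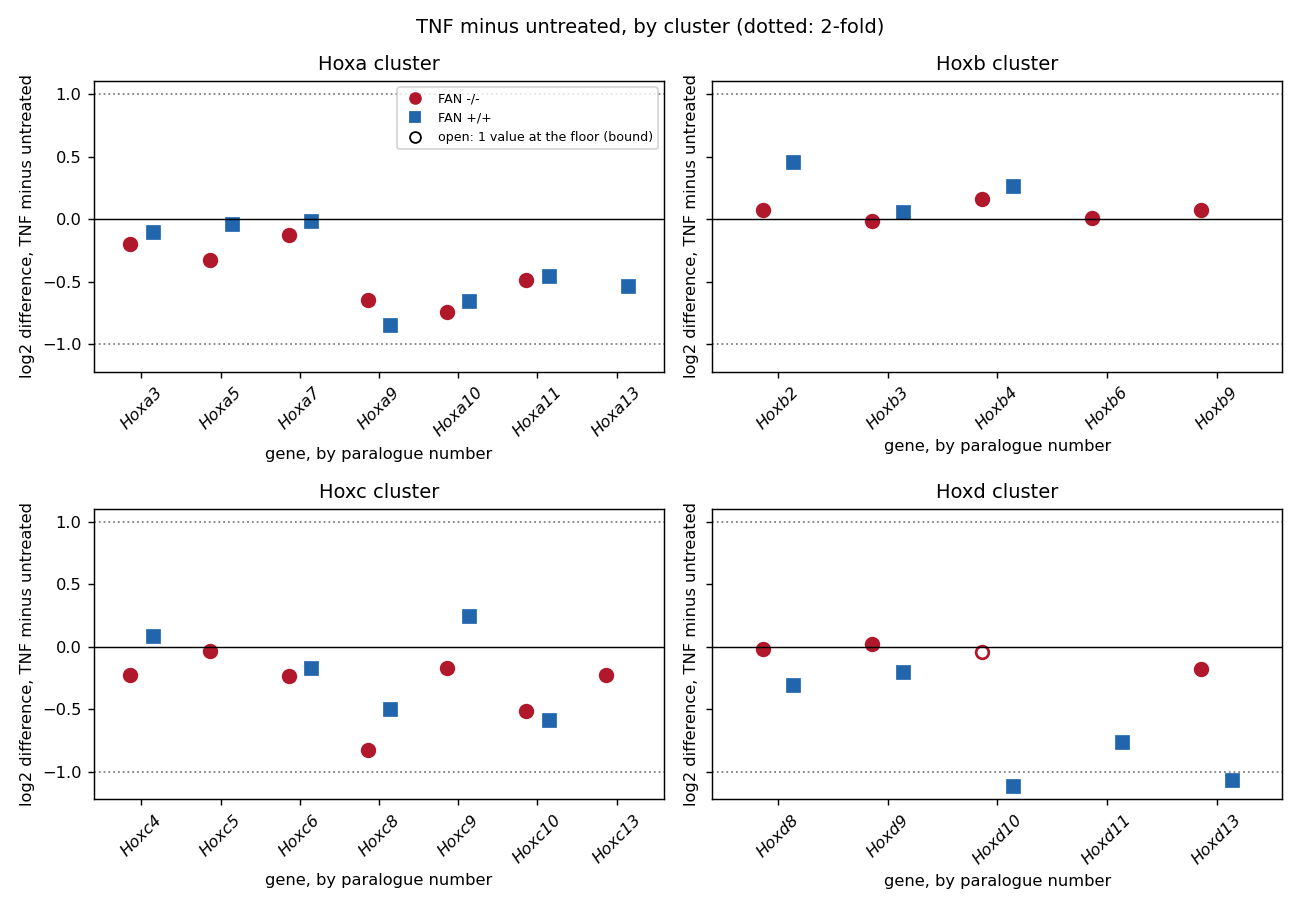
Log2 difference of TNF minus untreated cells (vertical axis) for Hox genes by cluster and paralogue number; circles are FAN -/- and squares FAN +/+ cells, each 1 array against 1, and dotted lines mark 2-fold. Open symbols are bounds, and a pair with both values below the floor has no point. Hoxa9, Hoxa10 and Hoxa11 lie below 0 in both genotypes, and Hoxd10 and Hoxd13 have the lowest values, in FAN +/+ cells.

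Hox proteins bind DNA with partners of the Pbx, Meis and Pknox families. Of 7 fitted partner genes, 2 were higher and 1 lower in FAN -/- cells, and 1 fell with TNF. Over all genes fitted, 2.94% were higher and 3.67% lower in FAN -/- cells, and 1.14% fell with TNF. Meis2 had log2 values of 9.28 with TNF and 9.63 untreated in FAN -/- cells, against 7.82 and 8.22 in FAN +/+ cells (1.44 ± 0.11 log2, adjusted p = 0.011). Meis1 was higher by 0.72 log2 (adjusted p = 0.038) and Pknox2 was lower, at -0.89 log2 (adjusted p = 0.025). Pbx3 had 8.42 with TNF against 9.86 untreated in FAN -/- cells, and 8.00 with TNF against 9.15 untreated in FAN +/+ cells. It was 2.72-fold lower with TNF in FAN -/- and 2.22-fold lower in FAN +/+ cells (-1.30 ± 0.13 log2, adjusted p = 0.025).

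Retinoic acid is a known activator of Hox genes, acting first on low-numbered ones. Cdx1, Cdx2 and Cdx4, further activators of Hox genes, lay below the floor on all arrays. Of 12 fitted genes, 3 were higher in FAN -/- cells and none was lower (limma, 2 lower before adjustment, background 2.94% higher and 3.67% lower). The 12 were those of retinoic acid synthesis, binding and breakdown, its receptors (Rara, Rarb, Rarg, Rxra and Rxrb) and the axial growth factor Gdf11. Aldh1a2, which makes retinoic acid, had 9.30 with TNF and 8.05 untreated in FAN -/- cells, against 7.10 and 6.27 in FAN +/+ cells (1.98 ± 0.15 log2, adjusted p = 0.010). Crabp2, which carries it to its receptors, had 9.40 and 10.65 in FAN -/- cells, against 7.55 and 8.61 in FAN +/+ cells (1.95 ± 0.12 log2, adjusted p = 0.0085). Cyp26b1, which degrades it, was higher by 0.80 log2 (adjusted p = 0.032). Crabp2 also fell with TNF (-1.16 log2, adjusted p = 0.025).

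Genes that flank the clusters, such as Skap2, Mtx2 and Lnpk, were compared too. Of 17 fitted, none passed for genotype (limma; 0 higher and 3 lower before adjustment, p under 0.05, where 1325 of all 11817 genes were higher and 1574 lower). Against the adjusted background of 2.94% and 3.67%, 0 of 17 is near the share over all genes. The list had a median effect of -0.10 log2, and none of its genes was 2-fold apart between genotypes in either pair. None passed for TNF either (1 higher and 1 lower before adjustment). Of 2 fitted noncoding RNAs of the clusters, 1 was lower. Hoxa11os, the antisense RNA of Hoxa11, had 6.67 with TNF and 6.73 untreated in FAN -/- cells, against 8.02 and 9.27 in FAN +/+ cells (-1.94 ± 0.30 log2, adjusted p = 0.038). Its direction was that of Hoxa11. Of 25 chromatin regulators, which include the Polycomb and Trithorax proteins that hold Hox clusters silent or active, Kdm6a alone passed for genotype, and was lower in FAN -/- cells (-0.67 log2, adjusted p = 0.041), a share near that over all genes. None of the 25 passed for TNF (limma; 1 higher and 4 lower before adjustment).

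Other transcription factors that mark position in limb and trunk differed as well. Of 14 fitted, 2 were higher and 5 lower in FAN -/- cells (limma, background 2.94% higher and 3.67% lower). None passed for TNF (background 1.57% higher and 1.14% lower), with 1 higher and 3 lower before adjustment. Barx1, a gene of the jaw and stomach mesenchyme, had 5.77 with TNF and 5.32 untreated in FAN -/- cells, against 8.66 and 8.15 in FAN +/+ cells, at least 5.23-fold and 3.68-fold lower. Hand2, which marks the posterior limb bud among other sites, had 4.90 and 5.24 in FAN -/- cells, against 7.42 and 8.29 in FAN +/+ cells, at least 2.22-fold and 4.05-fold lower. Barx1 and Hand2, counted among the lower genes, entered the fit through the FAN +/+ arrays alone, so the genotypes could not overlap in them. Lmx1b, which specifies the dorsal limb, had 7.10 and 7.66 in FAN -/- cells, against 8.14 and 9.21 in FAN +/+ cells (-1.30 ± 0.17 log2, adjusted p = 0.026). Shox2, a gene of the proximal limb, was higher in FAN -/- cells by 1.14 ± 0.12 log2 (adjusted p = 0.019). Tbx18 was lower (-0.96 log2, adjusted p = 0.019). Of the hindlimb genes, Pitx1 was higher (0.79 log2, adjusted p = 0.031) and Tbx4 lower (-0.76 log2, adjusted p = 0.040). These last 3 were named after their values were seen.

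Some markers of fibroblasts and of other cell types also differed between the genotypes. Over all genes fitted, limma called 2.94% higher and 3.67% lower in FAN -/- cells. Summed over 6 cartilage markers, the signal was 618 with TNF and 760 untreated in FAN -/- cells, against 1753 and 3248 in FAN +/+ cells, and 4 of the 6 were above the floor in each, with Acan and Matn1 below it on all arrays. Comp and Col2a1 of that list were lower by limma. Over 5 neural markers it was 3015 and 2646 in FAN -/- cells, against 1059 in each treatment of FAN +/+ cells; 3 of the 5 were above the floor and Elavl4 was not on any array. Most of that sum was Ncam1, with 2546 and 2295 in FAN -/- cells, against 743 and 669 in FAN +/+ cells. Ncam1 and Tubb3 were higher by limma (adjusted p = 0.0071 and 0.048), while Sox2, above the floor only in untreated FAN +/+ cells, had 12.0 untreated in FAN -/- cells, against 159 in FAN +/+ cells. The 10 fibroblast markers summed to 84352 and 97278 in FAN -/- cells, against 112707 and 112398 in FAN +/+ cells. By limma 3 of them were lower, Pdgfra (-1.62 log2), Dcn (-1.64 log2) and Lum (-4.97 log2), and 0 were higher. Over 6 skeletal muscle markers the sums were 825 and 1128 in FAN -/- cells, against 512 and 837 in FAN +/+ cells, with Myod1, Myog and Myf5 below the floor on all arrays and Des higher by limma (adjusted p = 0.034). Over 8 leukocyte markers they were 837 and 1386 in FAN -/- cells, against 845 and 619 in FAN +/+ cells. Untreated, Lyz2 was 3.28-fold and Csf1r 2.46-fold higher in FAN -/- cells, and neither passed for genotype. Over 6 endothelial markers they were 393 and 416, against 378 and 428, and over 6 epithelial markers 859 and 875, against 905 and 813, again with FAN -/- cells set against FAN +/+ cells. Cdh1, Krt18 and Krt14 of the epithelial list lay below the floor on all arrays, while Epcam, Krt8 and Krt5 lay above it on all 4. Epcam had log2 values of 9.08 with TNF and 9.19 untreated in FAN -/- cells, against 9.25 and 9.05 in FAN +/+ cells. The part of these differences in the Hox result was not tested.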

How the data were processed

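Total RNA of 4 fibroblast cultures was measured on Affymetrix GeneChip mouse arrays, 1 per condition. The authors deposited log2 values of 45101 probe sets; that they are log2 was judged from their range (2.79 to 14.40). MAS5 was used per the submitters' processing notes, with no version; the normalization between arrays and any filter are not given in the sources used here, so how far low values were compressed is unknown. Probe sets were named from the platform annotation: 34945 name 1 gene, 932 several, 9160 none, and 64 are controls. Entrez identifiers matched the reference gene table for 34741, and 0 symbols changed.

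Where a gene had several probe sets, the one with the highest mean over all arrays stood for it. Values below the 50th percentile (log2 6.27) were raised to it. Differences of array pairs carry no p-value, and 2-fold means a log2 difference of at least 1. limma 3.58.1 (R 4.3.3; lmFit, eBayes with trend, prior degrees of freedom 3.52) fitted genotype and TNF to 11817 genes, with Benjamini-Hochberg adjustment over all of them and a threshold of 0.05; the step was tested on simulated data. The number of arrays limits the precision. Named genes are the Hox genes, Nsmaf and up to 4 members of each further list, past the test or 2-fold apart in both pairs, largest first. Outside that rule, and chosen after their values were seen, are Skap2, Mtx2, Lnpk, Pitx1, Tbx4, Tbx18, the Cdx genes, the other retinoic acid list members and the markers that did not pass. The further lists were Hox partners, chromatin regulators, retinoic acid and Cdx genes, flanking genes, cluster noncoding RNAs, position factors and markers of fibroblasts, leukocytes, endothelium, epithelium, neural cells, skeletal muscle and cartilage. The Hox genes and lists were chosen with earlier results of these data known. The alternatives tried were a floor at the 30th or 70th percentile or none, quantile normalization, median centring, averaged probe sets, no trend, no filter and 1 factor left out. Promoter sequences are from RefSeq (GRCm38.p6).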

Additional observations from a re-analysis of the deposited data

How the results depend on the processing

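Arrays could not be paired by replicate, because each condition has 1 array and the labels carry no replicate numbers. For the same reason no replicate could be left out. The additive model does compare the genotypes within each treatment. No Hox gene that passed reversed its direction under any alternative. Genotype calls, 12 higher and 2 lower, kept all 14 genes with quantile normalization, without the trend, without a floor and after centring; averaging probe sets kept 13, the 30th percentile floor 12 and the 70th 7. The lower count became 5 with the 30th percentile floor or none and 6 after centring, adding Hoxa13, Hoxd10 and Hoxd11 in each and Hoxa10 after centring. With the 70th percentile floor 13 Hox genes could be fitted, and 5 were higher and 3 lower. Fitting all genes without a filter, which adds genes whose values all sit at the floor, gave 0 and 0 Hox calls (limma, 13 and 3 at an unadjusted p under 0.05, against 1117 and 1063 over all genes), and 0 calls over all genes. Leaving TNF out of the model gave 0 and 0 (13 and 5 unadjusted, against 794 and 871 over all genes), with 4 higher and 6 lower over all genes. The genotype result therefore rests on the additive model and the filter.

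For TNF, the 1 lower call became 0 with the 30th percentile floor, averaged probe sets, no trend, no filter or genotype left out (6, 5, 5, 4 and 1 at an unadjusted p under 0.05, against 1354, 1138, 1250, 823 and 434 over all genes). It became 2 with no floor or quantile normalization (Hoxa9 added), 3 with the 70th percentile floor (Hoxa9 and Hoxc8 added) and 4 after centring (Hoxc10 added too).

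At 2-fold, the 70th percentile floor left 4 higher and 2 lower untreated, 3 higher and 1 lower with TNF, and 1 lower with TNF in FAN +/+ cells. With TNF, 5 were lower with the 30th percentile floor or none. The difference of responses had 0 upward with the 30th percentile floor or none and 2 with averaged probe sets. Values near the floor limit Hoxa13, Hoxb6, Hoxb9, Hoxc5, Hoxc13, Hoxd10 and Hoxd11.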

Other observations

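Hoxb8, Hoxb7, Hoxd3 and Hoxd4 also share probe sets that name a pair of genes and were left out of the comparisons. The probe set of Hoxb8 and Hoxb7 had log2 values of 6.56 with TNF and 6.73 untreated in FAN -/- cells, against 6.40 and 6.07 in FAN +/+ cells. The 2 probe sets of Hoxd4 and Hoxd3 lay below the floor on every array, between 4.79 and 5.61. The antisense RNA Hoxa11os had 6.67 with TNF against 6.73 untreated in FAN -/- cells, and 8.02 against 9.27 in FAN +/+ cells, where it was 2.38-fold lower with TNF; the difference between these responses was 1.19 log2 and could not be tested.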
